A study of Maylandia zebra with 2 samples.

Results

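Extracellular proteases and their inhibitors were followed across the cell classes of the oral lamina of the cichlid fish *Maylandia zebra*. The members were all features whose symbol begins as a matrix metalloproteinase (mmp), an ADAM, an ADAMTS or ADAMTS-like protein, a tissue inhibitor of metalloproteinases (timp) or a cathepsin (cts), with case and the words 1 of many ignored. The rule found 81 of 28622 features. They comprised 20 mmp, 16 adam, 15 adamts, 3 adamts-like, 4 timp and 23 cathepsin features.

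The study sequenced RNA of single nuclei from the tissue that carries the replacement teeth of Lake Malawi cichlids, to describe its cell types. One group came from oral lamina of the upper jaw and the other from that of the lower jaw, both next to replacement teeth, each with 1 library and with no strain, age or treatment given in the labels. Tissue was lysed and homogenised, and DAPI-stained single nuclei were collected by sorting. The deposited matrix pools both jaws without a map from nuclei to jaws, so it was treated as 1 sample, no test was made, and all intervals cover counting error only.

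Metalloproteinases of the MMP, ADAM and ADAMTS families share a zinc-dependent active site. MMPs cut collagens and other matrix proteins, ADAMs release the outer parts of membrane proteins such as growth factors and Notch receptors, and ADAMTS enzymes process procollagens and trim proteoglycans. TIMPs block these enzymes, while cathepsins act mainly in lysosomes and can also be secreted, and in teeth and jaws of mammals such enzymes take part in eruption, enamel maturation and bone resorption. Roles named below are known from mammals and are given as background.

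The authors kept 1296 nuclei with 1423040 unique molecular identifiers (UMIs, 1 per captured RNA molecule) and a median of 832.5 UMIs per nucleus. They named 6 classes, with 808 Epithelial, 266 Immune, 98 Pigmented, 85 Mesenchymal, 21 Mature TB and 18 Immature TB nuclei, TB being the authors' abbreviation, and 12 numbered clusters. Levels are UMIs summed over a class or cluster and scaled to the usual common total (CPM), and a fold is the ratio of CPM to all other kept nuclei. A floor of 3 UMIs equals 3.27 CPM in Epithelial and 27.2 CPM in Mesenchymal nuclei, but 119 CPM in Mature TB. Barcodes carry 2 suffixes, with 754 and 542 kept nuclei, and 1 barcode sequence occurred under both.

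Marker sums followed most class names. Epithelial markers summed to 30243 CPM in Epithelial nuclei, against 6109 to 14702 CPM in the other classes. Mesenchymal markers summed to 15392 CPM in Mesenchymal nuclei against 680 to 1965 CPM elsewhere, and lymphocyte markers reached their highest class sum, 2314 CPM, in Immune nuclei. Taste bud markers summed to 6545 CPM in Mature TB and 3024 CPM in Immature TB, against 366 to 919 CPM in the other classes, while tas1r1 and OTOP1 were at 0 in both. In the class the authors called Pigmented, 5 of 19 pigment features were detected, and tyr, TYRP1, pmela, pmelb and sox10 were among those at 0. Levels of the 5 detected features are not given here, so these values do not settle the name. Macrophage markers summed to 5383 CPM in this class, against 39.7 to 506 CPM elsewhere. The class keeps the authors' name below.

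The 81 members held 4226 UMIs, 0.297% of all. At least 20 UMIs, the minimum used for counts of changed members, were found for 38 members: 8 mmp, 10 adam, 10 adamts, 2 adamts-like, 2 timp and 6 cathepsin features. The other members were 31 with fewer UMIs and 12 with none. The measured members had a median of 64 UMIs, next to 62 over all 9333 features that passed the same minimum. Just inside it lay *ctsc* with 21 UMIs and *mmp15a*, *adamts15b* and *adam12* with 20 each, and just outside it *ctsd* with 18, *adam19b* with 17, *MMP16* with 16 and *mmp25b* with 15. The words 1 of many, a part of some feature names, stood beside 18 members, 6 of them measured. Sequences of the members were not compared, so how reads of similar copies were assigned is not known. The values of these members are therefore uncertain. UMIs were not scaled to transcript length, so orders of members by UMIs and shares of a family's UMIs are statements about UMIs, and CPM levels were not compared between genes.

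MMP sums were highest in Mesenchymal nuclei at 1452 CPM (95% Poisson interval 1236 to 1695) and in Epithelial nuclei at 1154 CPM (1085 to 1225). They were lowest in Immature TB at 529 CPM (289 to 888) and in Immune nuclei at 617 CPM (524 to 722). ADAM sums were highest in Mesenchymal nuclei, at 1053 CPM and 1.99-fold (1.62 to 2.43) the level elsewhere. ADAMTS sums led in Epithelial nuclei at 1025 CPM, 1.59-fold (1.40 to 1.81). Cathepsins stood apart in Pigmented nuclei, at 1488 CPM (1248 to 1760) and 6.25-fold (5.07 to 7.67). TIMP sums ran from 54.7 to 87.6 CPM in the classes of more than 50 nuclei, with overlapping intervals, and were at 0 UMIs in Mature TB, where the floor of 3 UMIs is 119 CPM.

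**Figure D1:**
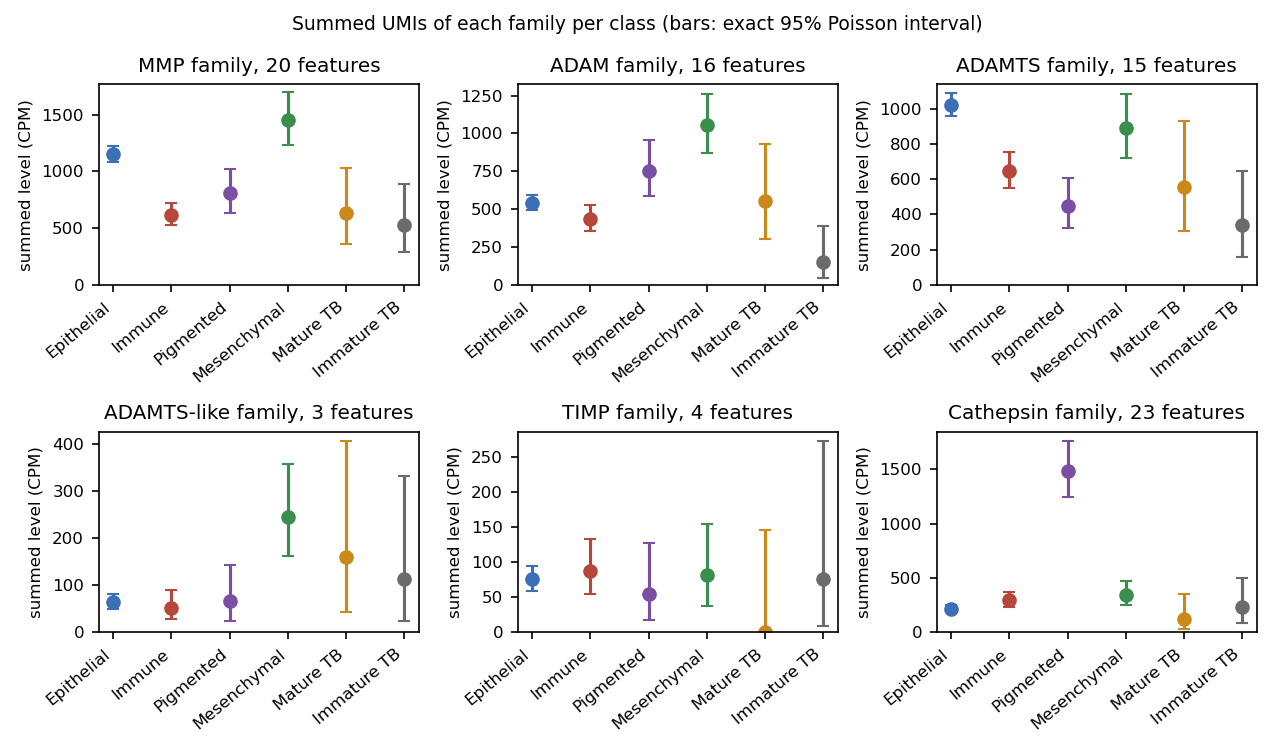
Summed CPM of each family in the 6 classes (points) with exact 95% Poisson intervals (bars). Cathepsins reached 1488 CPM in Pigmented nuclei, against 119 to 345 CPM in the other classes, while TIMP intervals overlapped throughout.

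Among membrane-type MMPs, *mmp15b* had the most UMIs of any member, 689, of which 529 lay in Epithelial nuclei, where they were 49.9% of all MMP UMIs. MMP15 is anchored in the cell membrane and cuts matrix proteins at the cell surface. Its level was 576 CPM in Epithelial, 381 in Mesenchymal, 328 in Pigmented, 287 in Immune, 357 in Mature TB and 265 in Immature TB nuclei, so it was found in every class. The Epithelial level was 1.82-fold (1.52 to 2.18) that elsewhere. The related *mmp15a* was distributed otherwise, with 15 of its 20 UMIs in Mesenchymal nuclei, 3 in Immune and 2 in Epithelial nuclei, a fold of 35.7 (12.3 to 126) for the Mesenchymal class.

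*mmp14a* and *mmp14b* correspond to MMP14, the membrane collagenase that also activates MMP2. *mmp14b* reached 182 CPM in Mesenchymal, 96.9 in Epithelial, 55.8 in Immune and 21.9 in Pigmented nuclei, and *mmp14a* reached 99.8, 20.7, 3.98 and 32.8 CPM in the same order. Both were higher in Mesenchymal nuclei, at 2.21-fold (1.30 to 3.58) and 5.70-fold (2.51 to 12.2). *mmp2*, the gelatinase that MMP14 activates, followed with 381 CPM in Mesenchymal, 132 in Epithelial, 76.6 in Pigmented and 59.7 in Immune nuclei, a Mesenchymal fold of 3.48 (2.40 to 4.93). That fold was 4.92 (3.18 to 7.50) in nuclei of suffix 1 and 1.53 (0.593 to 3.30) in those of suffix 2.

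Of the other secreted MMPs, *mmp28*, or epilysin, an enzyme of keratinocytes, stood at 229 CPM in Epithelial nuclei, 1.77-fold (1.34 to 2.38), and between 75.6 and 175 CPM in the other classes. *mmp11a* is related to stromelysin-3, which in mammals acts in tissue remodelling. It had 65 of its 75 UMIs in Epithelial nuclei, at 70.8 CPM and 3.57-fold (1.82 to 7.79), and 10.9 to 19.9 CPM in Immune, Pigmented and Mesenchymal nuclei. *mmp20a* and *mmp20b*, counterparts of enamelysin, had 0 UMIs in the kept nuclei, where a floor of 3 UMIs is 2.11 CPM. *mmp13b*, a collagenase, had 1 UMI, and *mmp9*, a gelatinase of leukocytes and osteoclasts, had 6, of which 4 in Pigmented and 0 in Epithelial nuclei. These 4 features were named for their known roles after their values were seen. In the RefSeq gene table of assembly Mzebra_GT3a, mmp20a and mmp13b are neighbouring genes.

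Among ADAMs, the meltrin-type members were highest in Mesenchymal nuclei. *ADAM12 (1 of many)* is a membrane protease of growing mesenchyme and muscle. It had 26 of 41 UMIs in Mesenchymal nuclei, at 236 CPM, against 8.71 in Epithelial, 19.9 in Immune and 10.9 in Pigmented nuclei. The fold was 20.7 (10.5 to 41.9), and it was 12.9 (5.95 to 27.9) without the 1 nucleus with its highest count, 10 UMIs. *adam12* had 11 of 20 UMIs in Mesenchymal nuclei, but 9 of the 11 came from 1 nucleus, and the fold fell from 14.6 (5.49 to 39.8) to 2.74 (0.288 to 13.2) without it. No nucleus had UMIs of both features. *adam19a*, another meltrin, reached 299 CPM in Mesenchymal, 101 in Epithelial, 63.7 in Immune and 21.9 in Pigmented nuclei, 3.42-fold (2.25 to 5.07) for the Mesenchymal class. It also had 4 UMIs in Mature TB.

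*adam15*, an ADAM with an integrin-binding domain, had 10 of its 29 UMIs in Mesenchymal and 7 in Pigmented nuclei, with folds of 6.27 (2.60 to 14.2) and 4.64 (1.67 to 11.2). Only 4 of its UMIs lay in Epithelial nuclei, at 4.35 CPM and 0.0878-fold (0.0222 to 0.254). *adam28 (1 of many)*, a leukocyte ADAM in mammals, was highest in Pigmented nuclei at 339 CPM and 2.90-fold (1.90 to 4.28), next to 135 CPM in Epithelial, 108 in Immune and 27.2 in Mesenchymal nuclei. The general sheddases varied less. *adam10b*, counterpart of the Notch receptor sheddase ADAM10, stood between 31.9 and 63.5 CPM in the classes of more than 50 nuclei. *adam17a* and *adam17b*, counterparts of the enzyme that releases tumour necrosis factor and epidermal growth factor ligands, ran from 39.8 to 98.5 and from 32.7 to 54.5 CPM in those classes, and the intervals of all their folds there include 1. *adam22*, an ADAM without protease activity, was higher in Epithelial nuclei at 68.6 CPM and 1.92-fold (1.12 to 3.45), and *adam8b*, related to a leukocyte sheddase, stood at 52.2 CPM there, with an interval that includes 1 (1.76-fold, 0.967 to 3.38).

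Of the 10 measured ADAMTS members, 5 had an Epithelial fold whose interval lies above 1, a count that was not made over all features. *adamts17*, whose mammalian counterpart acts on fibrillin matrix, had 331 of 430 UMIs in Epithelial nuclei, at 360.3 CPM against 245 in Mesenchymal, 203 in Immune and 109 in Pigmented nuclei. Mature TB and Immature TB held 7 and 4 of its UMIs. Its Epithelial fold was 1.84 (1.46 to 2.32). *adamts6*, a relative of the fibrillin-binding ADAMTS10, stood at 204 CPM and 1.66-fold (1.24 to 2.24), and *adamts12*, which degrades cartilage matrix protein in mammals, at 163 CPM and 1.87-fold (1.33 to 2.68). The proteoglycan-cutting members *ADAMTS5* and *ADAMTS20* stood at 94.7 CPM and 2.65-fold (1.58 to 4.69) and at 79.5 CPM and 2.36-fold (1.38 to 4.26) in Epithelial nuclei. With 18 and 17 UMIs outside the class, both reached the minimum only through it.

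*adamts3*, a procollagen N-proteinase that also activates the growth factor VEGFC, was highest in Mesenchymal nuclei. Its level was 236 CPM in Mesenchymal nuclei, with 26 of 41 UMIs, against 11.97 in Epithelial and 15.9 in Immune nuclei and 0 UMIs in Pigmented nuclei. The Mesenchymal fold was 20.7 (10.5 to 41.9) in all nuclei, 8.19 (2.27 to 28.5) in suffix 1 and 41.4 (17.5 to 109) in suffix 2. ADAMTS-like proteins lack the catalytic domain and bind fibrillin matrix. *adamtsl3* was Mesenchymal too, with 26 of 52 UMIs and 11.9-fold (6.65 to 21.4). *adamtsl5* had 1 of its 59 UMIs in Mesenchymal nuclei and 3 in each TB class. Its 40 UMIs in Epithelial nuclei were 1.16-fold (0.654 to 2.11) the level elsewhere, an interval that includes 1. *adamtsl2* was at 0.

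Because depth differs between classes, each nucleus was also thinned to 500 UMIs, which left 77 Mesenchymal nuclei with 8 left out and 694 Epithelial nuclei with 114 left out. *ADAM12 (1 of many)* was then found in 11.7% (exact binomial 5.49 to 21.0) of Mesenchymal and 0.576% (0.157 to 1.47) of Epithelial nuclei, *adamtsl3* in 14.3% (7.35 to 24.1) and 0.72% (0.234 to 1.67). *adamts3* was found in 10.4% (4.59 to 19.4) and 0.72%, and *mmp15a* in 10.4% and 0.144% (0.00365 to 0.80). Without thinning the Mesenchymal shares were 16.5%, 21.2%, 15.3% and 12.9% and the Epithelial shares 0.99%, 1.98%, 1.36% and 0.248%, at median depths of 986 and 840.5 UMIs. After thinning, the Mesenchymal shares lie above the Epithelial shares by more than counting error. These members already had high Mesenchymal folds in the same counts, so the shares are not separate evidence. *ADAM12 (1 of many)*, *adamts3* and *mmp15a* also reached the minimum only through the Mesenchymal class. In droplet data free RNA can give a low share in every class. Its level was not measured, and its part in the shares was not tested.

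TIMPs were sparse, with 107 UMIs in all. *TIMP3*, which binds to matrix and blocks ADAM17 and ADAMTS5 as well as MMPs, held 65 of them and *TIMP2 (1 of many)*, the partner of MMP14 in activating MMP2, held 37, while *timp4.2* had 3 and *timp2b* 2. *TIMP3* stood at 52.2 CPM in Epithelial, 54.5 in Mesenchymal, 35.8 in Immune and 10.9 in Pigmented nuclei, and each fold's interval includes 1. *TIMP2 (1 of many)* reached 47.8 CPM in Immune nuclei, 2.24-fold (1.03 to 4.63), against 18.2 to 32.8 CPM in Epithelial, Pigmented and Mesenchymal nuclei. Neither TIMP was higher in Mesenchymal nuclei by more than counting error, with 6 UMIs of *TIMP3* and 2 of *TIMP2 (1 of many)* there. In that class *mmp2*, *mmp14a* and *mmp14b* were higher. Without each TIMP's nucleus with the highest count, the Mesenchymal folds were 1.30 (0.457 to 3.01) and 0.721 (0.0838 to 2.82). These intervals overlap those of the MMPs, so such low counts cannot show that the TIMPs differ from them.

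Inhibitors of other families were set beside them. *reck*, a membrane-anchored inhibitor of MMPs, was Mesenchymal, with 25 of 67 UMIs and 7.09-fold (4.14 to 11.9), and so was *spock1*, a testican proteoglycan, at 12.9-fold (5.43 to 30.9). *spock3* was higher in Immune nuclei at 2.999-fold (2.37 to 3.78). *cst3*, cystatin C, an inhibitor of cysteine cathepsins, had 82 of 95 UMIs in Epithelial nuclei and 3.46-fold (1.92 to 6.78). Of 7 measured inhibitors outside the TIMPs, 2 were at least 2-fold higher in Mesenchymal, 2 in Immune, 1 in Pigmented and 1 in Epithelial nuclei, where 10.6%, 11.6%, 14.6% and 12.6% of all measured features were. With 12 UMIs outside the Mesenchymal class, *spock1* reached the minimum only through it. The same holds for *cst3* and the Epithelial class, with 13 UMIs outside it.

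Cathepsins had the largest fold of any family in a class of more than 50 nuclei. *CTSS (1 of many)* (ENSMZEG00005010627) is a counterpart of cathepsin S, which processes antigen-presenting molecules in macrophages and dendritic cells. It reached 460 CPM in Pigmented nuclei with 42 of 99 UMIs, next to 99.6 in Immune, 45.4 in Mesenchymal and 22.9 in Epithelial nuclei, a fold of 10.7 (7.03 to 16.3). It also had 4 UMIs in Immature TB, where it was counted as at least 2-fold higher. *ctsba*, counterpart of cathepsin B, a broad lysosomal protease, reached 536 CPM against 99.8 in Mesenchymal, 75.7 in Immune and 55.5 in Epithelial nuclei, a fold of 8.71 (5.98 to 12.6). Its Pigmented fold was 8.52 (5.25 to 13.6) in suffix 1 and 8.79 (4.66 to 16.1) in suffix 2.

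The remaining measured cathepsins had their highest class level in Pigmented nuclei too, apart from *ctsk*. *ctsc*, which activates granule proteases of leukocytes, stood at 8.97-fold (3.22 to 23.3) there, *ctsz (1 of many)*, a carboxypeptidase, at 5.30-fold (2.49 to 10.5), and *ctsl.1 (1 of many)*, a cathepsin L, at 4.48-fold (1.75 to 10.2). The other 7 of 8 features named ctsl.1 were at 0. *ctsk*, the collagen-degrading cathepsin of osteoclasts, was at 118 CPM in Mesenchymal and 98.5 CPM in Pigmented nuclei, 2.77-fold (1.39 to 5.12) and 2.19-fold (0.953 to 4.43), against 45.7 CPM in Epithelial and 19.9 in Immune nuclei. The Mesenchymal fold of *ctsk* was 5.01 (2.18 to 10.9) in suffix 1, with 11 UMIs in that class, and 0.947 (0.110 to 3.68) in suffix 2, with 2 UMIs, so its direction rests on suffix 1. Osteoclast markers, a list that includes *ctsk*, summed to 408 CPM in Mesenchymal and 481 CPM in Pigmented nuclei against 119 to 219 CPM elsewhere, with *DCSTAMP* at 0 in every class and *acp5b* at 0 in Pigmented nuclei.

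After thinning to 500 UMIs, *ctsba* was found in 28.4% (18.9 to 39.5) of 81 Pigmented nuclei and 2.31% (1.32 to 3.72) of Epithelial nuclei, and *CTSS (1 of many)* in 16.0% (8.83 to 25.9) and 0.865% (0.318 to 1.87). Without thinning, *ctsba* was found in 33.7% and 4.83%. All 7 measured macrophage markers were at least 2-fold higher in Pigmented nuclei as well, where 14.6% of all measured features were, and their part in the cathepsin values was not tested. Lysosomal companions of the cathepsins were higher as well. Of 18 measured genes, 11 were at least 2-fold higher in Pigmented nuclei and 1 was lower, beside 14.6% and 19.2% of all measured features, with a median log2 fold of 1.31 against -0.04 over all measured features. Among them were *tfeb*, the regulator of lysosomal genes, at 8.63-fold (5.40 to 13.6), *cln3* at 7.58-fold (3.56 to 15.4), *gnsb* at 2.80-fold (1.75 to 4.32) and *lamp2*, a lysosomal membrane protein, at 2.63-fold (1.72 to 3.90). *lgmn*, legumain, which processes cathepsins, was 4.29-fold (3.16 to 5.74) higher.

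**Figure D2:**
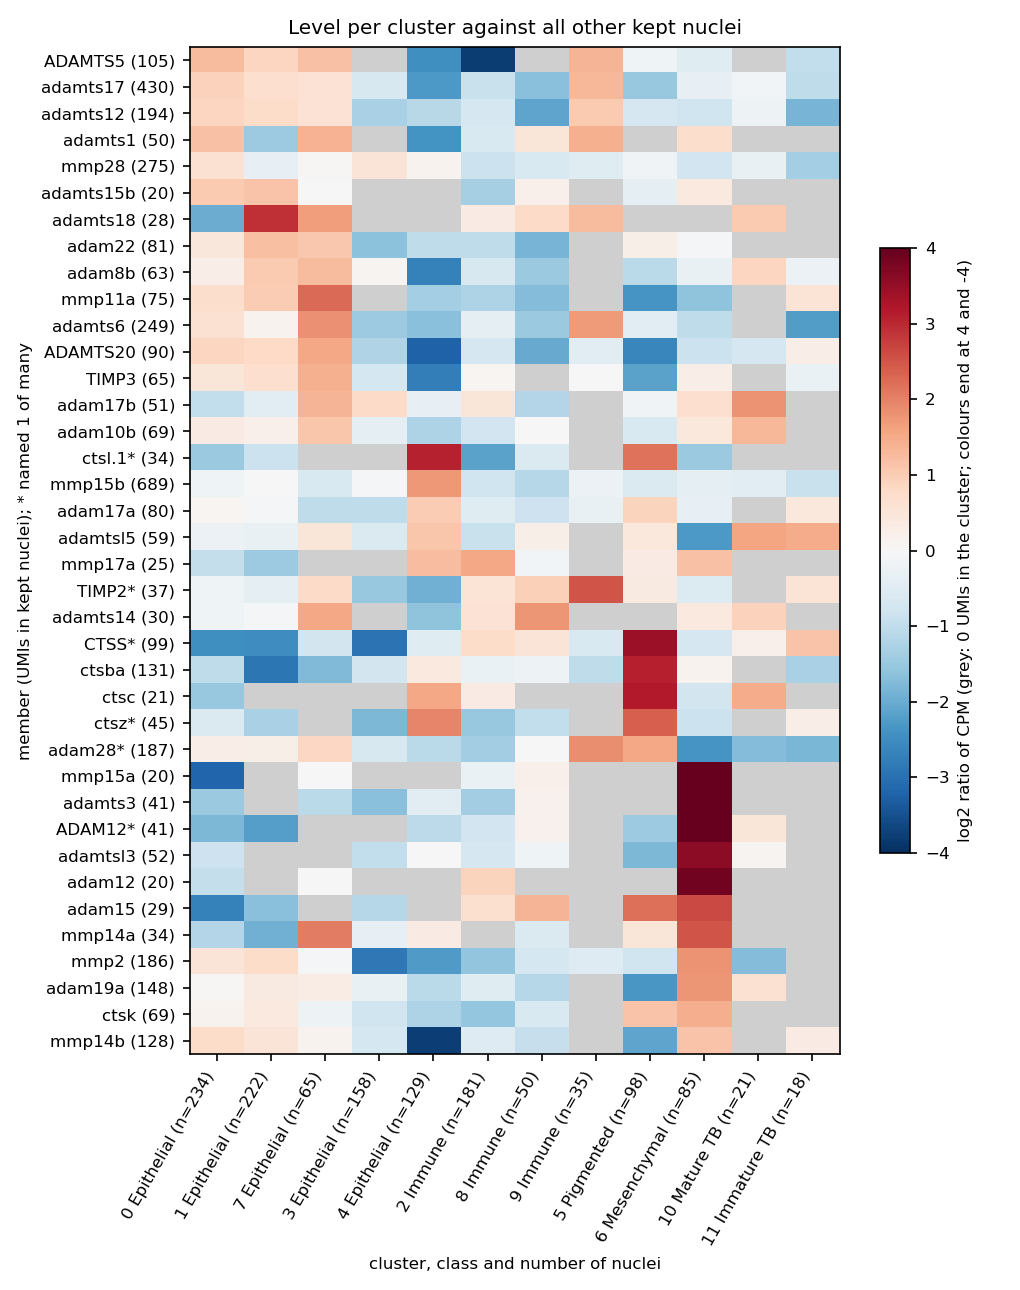
Log2 ratio of CPM in each of the 12 clusters to all other kept nuclei for the 38 members with at least 20 UMIs. Grey cells have 0 UMIs and the colours end at 4 and -4, so that, for example, mmp15a in cluster 6 (35.7-fold) lies beyond the scale.

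In Mesenchymal nuclei 12 of 38 members were at least 2-fold higher, 31.6%, where 10.6% of all measured features were. The 12 were *ADAM12 (1 of many)*, *adam12*, *adam15*, *adam19a*, *adamts3*, *adamtsl3*, *ctsk*, *mmp14a*, *mmp14b*, *mmp15a*, *mmp17a* and *mmp2*. Of these 12, *ADAM12 (1 of many)*, *adam12*, *adam15*, *adamts3* and *mmp15a* had fewer than 20 UMIs outside the class and so reached the minimum only through the class in which they were high. With 20 UMIs asked for outside the class, a rule added after seeing the data, 7 of 32 members were higher, 21.9%, beside 8.09% of all features that met it. Of the 12, 7 were at least 2-fold higher within both suffixes and 10 were higher in both, counts that were not made over all features. Counted anew within each suffix, where fewer members reach 20 UMIs, 7 of 28 and 3 of 24 were higher. Epithelial nuclei also had 7 in suffix 1, and Pigmented nuclei and Mature TB each had 5 in suffix 2. By count, the Mesenchymal class thus did not lead alone in either suffix. No share over all features was counted within a suffix, so these counts do not rank the classes. In all Mesenchymal nuclei another 5 members were at least 2-fold lower, 13.2% against 18.1%. Sums of other marker lists that moved with the class were mesenchymal markers, above, and endothelial markers, at 581 CPM against 55.5 to 159 CPM elsewhere, with *sox17*, *SOX18* and *plvapb* at 0. Their part in the counts was not tested.

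In Pigmented nuclei 8 of 38 members were at least 2-fold higher, 21.1% against 14.6% of all measured features, namely the 6 measured cathepsins with *adam15* and *adam28 (1 of many)*. Of these, *ctsc* had fewer than 20 UMIs outside the class and so reached the minimum only through it. With 20 UMIs asked for outside the class, 7 of 36 members were higher, 19.4% beside 12.6% of all features that met it. All 8 were higher within both suffixes, and 6 by at least 2-fold, counts that were not made over all features. Members lower in that class numbered 9, 23.7% against 19.2%. In Epithelial nuclei 3 were higher, 7.89% against 12.6%, all with fewer than 20 UMIs outside the class, and 10 were lower, 26.3% against 16.3%. With 20 UMIs asked for outside that class, 0 of 19 members were higher, beside 6.98% of all features that met it. In Immune nuclei 3 were higher, 7.89% against 11.6%, and 9 lower, 23.7% against 15.8%. The 3 Immune members, *TIMP2 (1 of many)*, *mmp17a* and *adamts14*, rest on 12, 8 and 9 UMIs, and *mmp17a* had fewer than 20 UMIs outside the class. Mature TB had 5 higher, 13.2% against 15.9%, and 2 lower, 5.26% against 8.38%. Immature TB had 2 higher, 5.26% against 16.0%, and 6 lower, 15.8% against 6.94%. None of the members higher in either TB class had more than 4 UMIs in it. Median log2 folds of the 38 members were 0.14 in Epithelial, -0.62 in Immune, -0.38 in Pigmented and 0.11 in Mesenchymal nuclei. They were -0.11 in Mature TB and -0.39 in Immature TB. Over all features they were -0.02, -0.03, -0.04, -0.13, 0.07 and 0.11 in that order. Pigmented nuclei thus had more members past 2-fold but a member median below that of all features, and Epithelial nuclei the reverse.

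**Figure D3:**
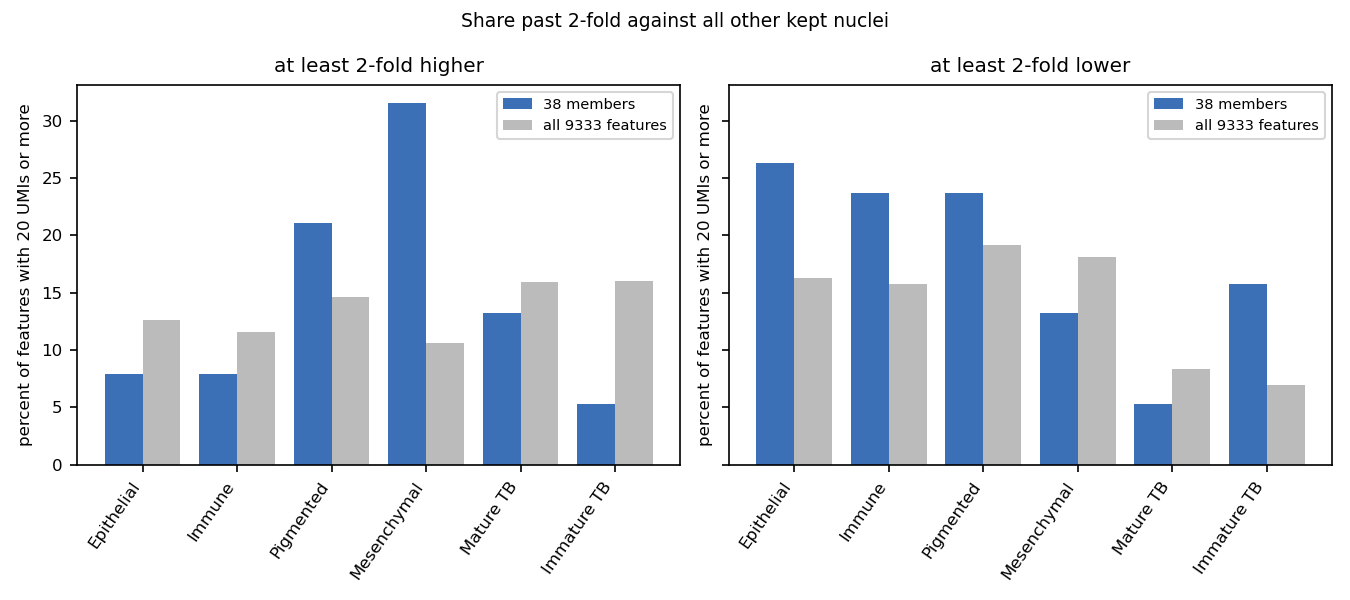
Percent of the 38 measured members and of all 9333 measured features that were at least 2-fold higher (left) or lower (right) in each class. On the left, members lie above all features in Mesenchymal (31.6% against 10.6%) and Pigmented nuclei (21.1% against 14.6%) and below them in the other 4 classes. Shares past 2-fold are not typical levels: the median log2 fold of the members was -0.38 in Pigmented and 0.14 in Epithelial nuclei.

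The epithelium was not uniform. Its 808 nuclei form 5 clusters, numbered 0, 1, 3, 4 and 7, with 234, 222, 158, 129 and 65 nuclei, and each was set against the other 4 for the 26 members with at least 20 UMIs in the class. Cluster 4 had 16 members at least 2-fold lower, 61.5% where 22.5% of 6979 features were, and 7 higher, 26.9% against 16.1%. Cluster 3 had 10 lower, 38.5% against 16.4%, and 0 higher, where 7.28% of features were. Cluster 7 had 9 higher, 34.6% against 7.67%, and 2 lower, 7.69% against 15.6%. Clusters 0 and 1 each had 1 higher, 3.85% against 3.27% and 4.48%, and 3 lower, 11.5% against 7.81% and 14.9%. With 20 UMIs asked for in the other epithelial clusters, 0 of 20 members were higher in cluster 0 and 0 of 24 in cluster 1. Of all features, 0.589% and 3.1% were. In clusters 4 and 7 the counts were then 4 of 23 and 8 of 24, 17.4% and 33.3%, beside 11.5% and 6.48%. Median log2 folds of the members were -1.19 in cluster 4, -0.85 in cluster 3, 0.71 in cluster 7, 0.31 in cluster 1 and 0.18 in cluster 0, while those over all features lay between -0.08 and 0.04.

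Cluster 4 combined a high *mmp15b* with few ADAMTS transcripts. *mmp15b* reached 1320.4 CPM there, with 180 of its UMIs, against 449 in cluster 0, 479 in cluster 1, 469 in cluster 3 and 325 in cluster 7, which is 2.96-fold (2.46 to 3.55) the other epithelial clusters. It made up 78.9% of the cluster's MMP UMIs. Of the 5 cathepsins with at least 20 Epithelial UMIs, 4 were at least 2-fold higher there. *ctsl.1 (1 of many)* had 16 of its 23 Epithelial UMIs in cluster 4, 13.1-fold (5.11 to 37.7), *ctsz (1 of many)* stood at 5.33-fold (2.31 to 12.2), *ctsba* at 2.62-fold (1.36 to 4.87) and *CTSS (1 of many)* at 2.87-fold (0.980 to 7.60). The fifth, *ctsk*, had 3 UMIs in the cluster, at 0.441-fold (0.0873 to 1.39). Of the 7 higher members, *CTSS (1 of many)*, *ctsl.1 (1 of many)* and *ctsz (1 of many)* had fewer than 20 UMIs in the other epithelial clusters. The sheddase *adam17a* stood at 2.01-fold (1.01 to 3.77).

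The members lower in cluster 4 included matrix-directed enzymes and their inhibitor. *mmp14b* had 1 UMI there, at 0.0652-fold (0.00163 to 0.373), and *ADAMTS20* and *TIMP3* had 1 each, at 0.0797-fold (0.00199 to 0.458) and 0.122-fold (0.00303 to 0.714). *ADAMTS5* stood at 0.135-fold (0.0161 to 0.503), *adamts17* at 0.160-fold (0.0727 to 0.308), *mmp2* at 0.196-fold (0.0526 to 0.516) and *adamts6* at 0.256-fold (0.109 to 0.516). Granulocyte markers summed to 939 CPM in cluster 4, against 0 to 178 CPM in the other clusters apart from cluster 5, where the sum was 306 CPM, and 6 of the 9 markers, with *csf3r* and *LYZ*, were at 0. Their part in the cluster's values was not tested. The lysosomal companions were also higher in cluster 4 than elsewhere, with 8 of 18 at least 2-fold higher and 1 lower, where 13.7% and 24.5% of all measured features were.

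Of the members lower in cluster 4, 7 were lower in cluster 3 as well. There *mmp2* had 2 UMIs, at 0.131-fold (0.0157 to 0.484), *adamts6* stood at 0.303-fold (0.120 to 0.637) and *adamts12* at 0.325-fold (0.117 to 0.724), while *ADAMTS5* and *mmp11a* had 0 UMIs, with upper bounds of 0.338-fold and 0.455-fold. ADAMTS sums were 1213 CPM in cluster 0, 1245 in cluster 1 and 1783 in cluster 7, against 383 in cluster 3 and 257 in cluster 4. Among the members higher in cluster 7, 7 were lower in cluster 4. Clusters 4 and 7 are each part of what the other was set against, so opposite calls are partly built in. Neither this overlap nor that of clusters 3 and 4 was counted over all features.

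Cluster 7, with 65 nuclei, led for *mmp11a* at 212 CPM and 3.60-fold (1.88 to 6.51) the other epithelial clusters, *adamts6* at 552 CPM and 3.16-fold (2.16 to 4.52), and *ADAMTS20* at 170 CPM and 2.36-fold (1.16 to 4.43). *TIMP3* stood at 113 CPM and 2.40-fold (0.970 to 5.20). The intervals of *adam10b*, *adam8b*, *adamts1* and *adamts18*, also counted as higher there, included 1 too. Mesenchymal markers summed to 3254 CPM in cluster 7, next to 2337 in cluster 0 and 2509.6 in cluster 1, with *pdgfra*, *pdgfrb* and *twist1a* at 0, and their part was not tested. In cluster 1 the member with the largest fold was *adamts18*, known in mammals from eye and branching organs, with 13 of its 20 Epithelial UMIs. It stood at 88.9 CPM and 9.81-fold (3.64 to 29.0) the other epithelial clusters. Those held 7 of its UMIs, so *adamts18* reached the minimum only through cluster 1. It was singled out after its values were seen.

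**Figure D4:**
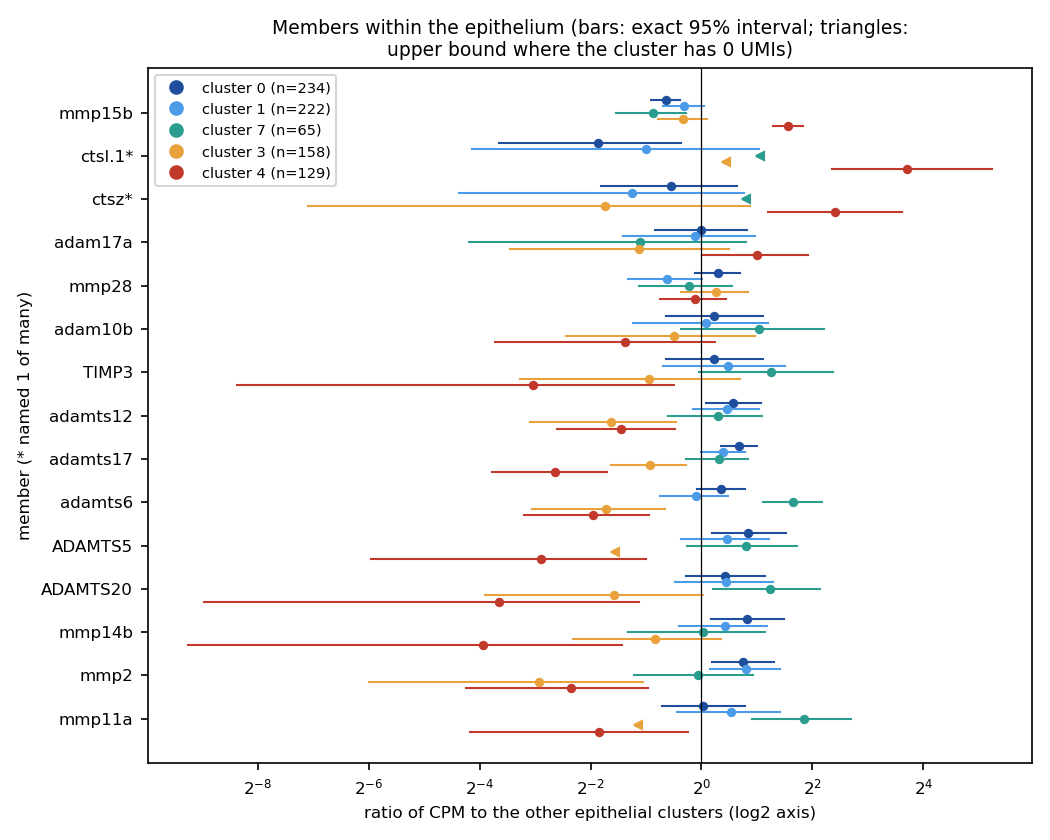
Ratio of CPM in each epithelial cluster to the other epithelial clusters for 15 members (points, log2 axis) with exact 95% intervals. In cluster 4, mmp15b, ctsl.1 and ctsz (both 1 of many) and adam17a lie above 1, and TIMP3, mmp14b, mmp2 and the ADAMTS members lie below it.

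Among Immune clusters only 7 members reached 20 UMIs in the class. Cluster 9, with 35 nuclei, had 4 of the 7 at least 2-fold higher than in clusters 2 and 8, 57.1% where 13.9% of 2977 features were. Of the 4, *adam28 (1 of many)* and *adamts12* had 17 UMIs each in clusters 2 and 8 and reached the minimum only through cluster 9. With 20 UMIs asked for in clusters 2 and 8, 2 of 5 members were higher, beside 11.4% of features. *adamts17* reached 737 CPM there against 173 in cluster 2 and 97.1 in cluster 8, 4.83-fold (2.49 to 8.95), *adamts6* 552 CPM and 4.69-fold (2.17 to 9.58), and *adamts12* 276 CPM and 3.73-fold (1.20 to 9.91). *adam28 (1 of many)* reached 460 CPM and 6.21-fold (2.54 to 14.4). In the Epithelial class *adamts17*, *adamts6* and *adamts12* stood at 360, 204 and 163 CPM, averages over clusters that differ. Their highest levels in an epithelial cluster were 451 CPM in cluster 1, 552 CPM in cluster 7 and 212 CPM in cluster 1. That of *adamts6* equals its level in cluster 9, where *adamts12* rests on 6 UMIs. The highest class level of *adam28 (1 of many)* was that of Pigmented nuclei, at 339 CPM. Epithelial markers summed to 14132 CPM in cluster 9, against 9971 in cluster 2 and 11214 in cluster 8, and mesenchymal markers to 2348 CPM against 901 and 696. Lymphocyte markers summed to 1749 CPM in cluster 9, 2810.5 in cluster 2 and 1165 in cluster 8, and *pax5* and *zap70* were at 0 in cluster 9. Their part in the cluster's values was not tested.

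Among related gene copies, the *mmp15* pair differed in class, with most UMIs of *mmp15a* in Mesenchymal nuclei and *mmp15b* found in every class. The Mesenchymal fold was larger for *mmp14a* than for *mmp14b*, with overlapping intervals. *adam19a* had 148 UMIs with 33 in Mesenchymal nuclei, and *adam19b* had 17 with 3 there.

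**Figure D5:**
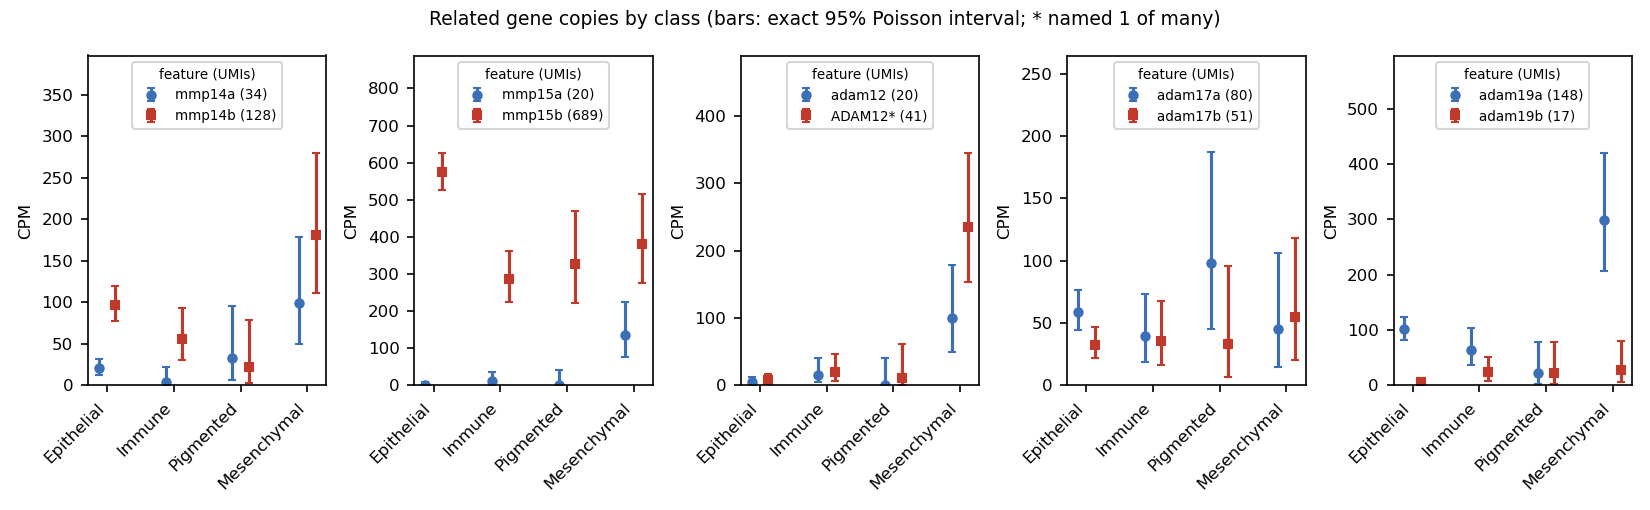
CPM of 5 pairs of related gene copies in the 4 classes of more than 50 nuclei, with exact 95% Poisson intervals. mmp15b lies between 287 and 576 CPM in all of them, whereas mmp15a stands at 136 CPM in Mesenchymal nuclei and at 2.18 CPM in Epithelial nuclei.

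Proteins that these enzymes act on were counted in the same way. Matrix substrates were higher in Mesenchymal nuclei for 8 of 11 measured genes and lower for 0, beside 10.6% and 18.1% of all measured features, with a median log2 fold of 2.89 against -0.13 over all measured features. Examples were *vcanb*, versican, at 127-fold (68.3 to 261), *FBN1*, fibrillin, at 41.7-fold (16.3 to 126), *dcn*, decorin, at 14.0-fold (11.1 to 17.6) and *col1a1a*, collagen I, at 7.96-fold (6.47 to 9.77). Outside the class *vcanb* and *FBN1* had 11 and 6 UMIs, so they reached the minimum only through it. The list shares genes of collagen I, fibrillin, lumican and decorin with the mesenchymal markers, so its count partly restates them. *ADAMTS5* and *ADAMTS20*, whose mammalian counterparts cut versican, were higher in the Epithelial class. *adamts3* was higher in the class with most collagen I transcripts and reached the minimum only through it. Another ADAMTS member, *adamts14*, stood at 1.49-fold (0.286 to 4.89) in that class without the nucleus with its highest count. Enzymes and substrates were not matched as a set, so these are examples only.

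Substrates of ADAM sheddases were higher in Epithelial nuclei for 8 of 16 measured genes and lower for 1, beside 12.6% and 16.3% of all measured features, with a median log2 fold of 1.03 against -0.02. *areg*, amphiregulin, stood at 7.36-fold (3.88 to 15.7) and *jag1b*, a Notch ligand, at 2.44-fold (2.16 to 2.77) in Epithelial nuclei, and *l1cama* and *alcamb*, adhesion proteins of neurons, at 15.8-fold (10.9 to 22.7) and 14.4-fold (8.45 to 23.5) in Mature TB. With 10 UMIs outside the Epithelial class, *areg* reached the minimum only through it. Among 19 measured proteases of other families, 5 were at least 2-fold higher in Epithelial, 5 in Mesenchymal, 4 in Immune and 2 in Pigmented nuclei, beside 12.6%, 10.6%, 11.6% and 14.6% of all measured features. *anpepa*, an aminopeptidase, had 21 of 25 UMIs in Mesenchymal nuclei, 62.6-fold (21.1 to 251), and *htra1b*, a secreted serine protease, stood at 3.97-fold (3.17 to 4.94) there. With 4 UMIs outside the class, *anpepa* reached the minimum only through it. *furina*, which activates membrane-type MMPs and ADAMs, was 2.79-fold (2.39 to 3.26) higher in Immune nuclei.

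Between the barcode suffixes, 33 of the 38 measured members differed by less than 2-fold in CPM. No such count was made over all measured features, so it cannot be read as a trait of the members. The largest difference was that of *adamts1*, an ADAMTS that cuts versican, with 45 UMIs in suffix 1 and 5 in suffix 2, 7.59-fold (3.02 to 24.5). It was found in 26 nuclei of suffix 1, with up to 8 UMIs in a nucleus, and in 5 of suffix 2, with 1 UMI each. Its Epithelial level was 38.1 CPM and 1.28-fold (0.682 to 2.52) in all nuclei. The others beyond 2-fold were *adam10b* at 0.421-fold (0.244 to 0.710), *adamts3* at 0.391-fold (0.186 to 0.781), *ctsl.1 (1 of many)* at 2.34-fold (1.06 to 5.70) and *adamts15b* at 3.37-fold (1.09 to 13.9), each as suffix 1 over suffix 2. *ADAMTS5*, which neighbours *adamts1* in the RefSeq table, was not among them. No deposited file ties a suffix to a jaw, so suffixes and jaws cannot be told apart.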

How the data were processed

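Single-nucleus RNA was measured in 2 samples (upper and lower jaw), deposited by the authors as 1 matrix of raw UMI counts. The submitters' processing notes name Cell Ranger 3.1.0. The genome build is not given in the sources used here. Cluster, class and kept marks come from the authors' metadata. Of 1381 barcodes, 85 were not kept, 44 with 300 genes or fewer and 41 with 2500 or more. The metadata name 1 sample, so nuclei have no jaw.

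UMIs of the kept nuclei were summed per class and cluster, scaled to CPM, and set against all other kept nuclei, or the other clusters of a class, for every feature. Ratios carry exact conditional, CPM exact Poisson and shares Clopper-Pearson 95% intervals, which cover counting error only. Clusters were built by the authors from the same counts, so levels describe them and test nothing, and no p is given. Counts of members from 2-fold use features with 20 UMIs or more. List medians add a prior count of 0.5 UMI. Nothing was removed as a doublet in the main values. Tools were scipy 1.17.1, scanpy 1.11.5 (Scrublet) and edgeR 4.0.16 (TMM factors only), under Python 3.11.15 and R 4.3.3, and the calculations were tested on simulated data.

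Full values were given for the 30 members with most UMIs and the 3 per family with the largest fold by lower bound, and for 4 genes per companion list. The members and all gene lists were chosen with earlier results of these data known. Symbols of 48 of 81 members occur in the RefSeq table of assembly Mzebra_GT3a, used only for neighbours. Sequence features of the proteins were planned but not computed. Alternatives are another total without ribosomal protein genes, TMM, means over nuclei, other minimums, depth cuts, Scrublet at an expected rate of 0.06, each suffix alone, the leading nucleus left out, and other thinning depths.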

Additional observations from a re-analysis of the deposited data

Results flagged for a closer look

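Signal of all 6 families also appeared in the 85 barcodes that the authors did not keep, which no comparison above uses and which held 675936 UMIs, 658114 of them in the 41 barcodes with 2500 genes or more and 134092 in 1 barcode. These barcodes held 696 UMIs of MMP members, or 1029.7 CPM (955 to 1109) against 1039 CPM in kept nuclei. They held 339 of ADAM members (502 against 569 CPM), 589 of ADAMTS members (871 against 890.4 CPM) and 38 of ADAMTS-like members (56.2 against 78.0 CPM). TIMP members had 63 UMIs (93.2 against 75.2 CPM) and cathepsins 167 (247 against 318 CPM). The authors give these barcodes no class.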

How the results depend on the processing

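Of 138 values recomputed under alternatives, 108 stayed within 1.5-fold or their error and 30 moved. Only the 54 family folds among them have a direction that could reverse, and 0 did. Each family was taken only in the class where its sum was highest, from the same or fewer nuclei, so a reversal was unlikely beforehand. The TIMP fold in Immune nuclei, 1.21 (0.719 to 1.95), has no clear direction and was 1.00 in suffix 1. The MMP fold in Mesenchymal nuclei was 1.23 (0.870 to 1.68) in suffix 2, an interval that includes 1. Counts and shares could only stay or move. Counts of members at least 2-fold higher moved as follows. For Epithelial nuclei (3 of 38) they were 8 with means over nuclei, 5 of 34 without the 5% of nuclei with most UMIs and 7 of 28 in suffix 1. For Immune nuclei (3) they were 5 of 44 at a minimum of 10 UMIs, 9 of 69 with no minimum, 5 of 34 without the 20% of nuclei with fewest UMIs, and 0 in suffix 1 and 0 in suffix 2. For Pigmented nuclei (8) they were 21 with no minimum, 4 in suffix 1 and 5 of 24 in suffix 2, and for Mesenchymal nuclei (12) 23, 7 and 3. For Mature TB (5) they were 3 with TMM, 8 with no minimum, 3 without the 5% with most UMIs and 3 in suffix 1, and for Immature TB (2) 1 with TMM, 4 in suffix 1 and 0 in suffix 2. With 20 UMIs asked for outside the class, 0 of 19 were higher in Epithelial and 7 of 32 in Mesenchymal nuclei. Of all features that met this rule, 6.98% and 8.09% were. Members that pass only through that class drop out under it. For the other alternatives no share over all features was counted. Within a suffix and under the depth cuts fewer members pass the minimum. Other causes were not tested. The ADAMTS fold in Epithelial nuclei was 1.36 in suffix 2 alone against 1.59.

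Shares of nuclei rise with depth by construction. ADAM in Mesenchymal nuclei went from 33.8% to 60.7% at 800 UMIs and 61.2% without thinning, ADAMTS in Epithelial nuclei from 31.4% to 48.0% and 47.9%, MMP in Mesenchymal nuclei from 55.8% to 70.6% without thinning, and TIMP in Immune nuclei from 4.04% to 7.63% at 800 UMIs. Scrublet called 1 nucleus, so undetected doublets may remain. No barcode outside the kept ones has a class, so using all barcodes with a class gave no other value. Leaving out a member's leading nucleus and the minimum outside the class were added after seeing the data.

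No paired analysis was possible because the labels give no replicate numbers and nuclei are not tied to jaws. Low depth limits most members: 9 of 38 had more than 10% of their UMIs in 1 nucleus, and in the TB classes 3 UMIs are more than 100 CPM.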

Other observations

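Some members below the minimum of 20 UMIs were also uneven, and they are named here after their values were seen. *mmp25b*, related to a leukocyte membrane MMP, had 6 of 15 UMIs in Pigmented nuclei, 9.71-fold (2.84 to 30.6). *MMP16*, a membrane-type MMP, had 8 of 16 UMIs in Mesenchymal nuclei, 11.9-fold (3.90 to 36.4). *ctss1*, a cathepsin S feature, had 8 of 14 UMIs in Immune nuclei, 6.22-fold (1.89 to 21.8), and so differed in class from *CTSS (1 of many)*. The second feature named *adamts15b* had 3 of its 5 UMIs in Mesenchymal nuclei, and the first had 15 of 20 in Epithelial nuclei. Without the nucleus with its highest count, the Epithelial fold of the first was 1.43 (0.480 to 5.14), an interval that includes 1. Such low counts cannot show that these features differ in class. At the other end, 7 measured members were detected in all 12 clusters. That count was not made over all features, so it cannot be read as a trait of the members.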
